A study of Homo sapiens with 12 samples.

Results

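Activin, TGF-beta and BMP signalling was followed through 48 genes, matched by symbol to the 63241 genes of the deposited count tables. They comprise ligands, receptors, SMAD proteins, antagonists and target genes, drawn up around the rise of INHBA and TMEM100 in the libraries labelled KD2. Of the 48 members, 42 had enough counts to be tested.

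Poly-A RNA was sequenced in 12 libraries of MDA-PCa-2b, an established cell line from a human prostate cancer. In KDR, a rescue of the second DHODH knockdown, in KD2, the second knockdown, in KD1, the first knockdown, and in NT there were 3 libraries each. What NT stands for, which construct was used for knockdown and by what means KDR was rescued are not given in the labels. All were grown in BRFF-HPC1 medium with FBS, and the growth protocol also names MDA-PCa-2a, so the line is given here as the sample labels give it. The labels do not say whether libraries of a group came from separate cultures, so p-values measure the spread between these libraries, which may be technical.

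Ligands of this superfamily are dimers that bring a type II receptor kinase together with a type I receptor kinase. Activins and TGF-betas mostly act through SMAD2 and SMAD3, BMPs through SMAD1, SMAD5 and SMAD9, and both branches share SMAD4. Secreted antagonists, pseudoreceptors, inhibitory SMADs and nuclear repressors limit the signal, and several of them are themselves induced by it. In prostate, TGF-beta is known as a growth inhibitor of normal epithelium, and BMPs are studied for their part in bone metastasis.

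Libraries held 23786288 to 38240369 counts. DHODH, the targeted gene, was not lower in the KD labels: it ranged over 17.5 to 19.2 counts per 1e6 counts (CPM) in KDR, 11.4 to 14.9 CPM in KD2, 9.62 to 11 CPM in KD1 and 8.95 to 13.4 CPM in NT. By edgeR's quasi-likelihood test DHODH was higher in KDR than in KD2 (log2 fold change 0.51, adjusted p = 0.00639) and than in NT (0.82, adjusted p = 1.02e-04). Its log2 fold change was 0.31 in KD2 against NT (adjusted p = 0.0968) and -0.03 in KD1 against NT (adjusted p = 0.974) by the same test. The groups are therefore called by their labels alone, and every direction below is between libraries labelled KDR, KD2, KD1 or NT. Replicates varied by a biological coefficient of variation of 5.53% in KDR, 7.16% in KD2, 6.61% in KD1 and 15.7% in NT, and 8.57% in NT without replicate 2. In 35 of the 42 tested members, NT replicate 2 was the lowest or the highest NT library; NT replicates 1 and 3 were so in 25 and 24 members. All 7 prostate luminal markers used (KLK3, KLK2, HOXB13, TMPRSS2, KRT8, KRT18 and EPCAM) passed the filter; their summed level was 14320 to 14700 CPM in KDR, 10200 to 10490 CPM in KD2, 14070 to 14520 CPM in KD1 and 14040 to 17150 CPM in NT. A sum is weighted to the most abundant markers and does not give the direction of each. The part of that lower summed level in the results below was not tested.

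Promoter windows from RefSeq (GRCh38.p14), from 250 bases before to 50 bases after the start site, were found for 42 of the 48 members. The 4 windows below are shown for 4 kinds of member that the results turn on, each with 1 start site in that table: a ligand subunit, a pseudoreceptor, a SMAD and a target gene. Capitals mark CAGAC, the SMAD3 and SMAD4 box (GTCTG where it lies on the other strand), and GGCGCC, a GC-rich SMAD1 and SMAD5 motif that reads the same on both strands. The first 2 lines below are INHBA (chr7:41703041-41703340, minus strand) and BAMBI (chr10:28677271-28677570, plus strand), and the last 2 are SMAD9 (chr13:36920189-36920488, minus strand) and ID2 (chr2:8681806-8682105, plus strand).
INHBA: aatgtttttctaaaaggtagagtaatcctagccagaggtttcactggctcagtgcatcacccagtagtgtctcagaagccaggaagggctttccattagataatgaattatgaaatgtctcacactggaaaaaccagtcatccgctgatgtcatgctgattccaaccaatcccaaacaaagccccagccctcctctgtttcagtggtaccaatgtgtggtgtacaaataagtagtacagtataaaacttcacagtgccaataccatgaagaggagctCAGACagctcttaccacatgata
BAMBI: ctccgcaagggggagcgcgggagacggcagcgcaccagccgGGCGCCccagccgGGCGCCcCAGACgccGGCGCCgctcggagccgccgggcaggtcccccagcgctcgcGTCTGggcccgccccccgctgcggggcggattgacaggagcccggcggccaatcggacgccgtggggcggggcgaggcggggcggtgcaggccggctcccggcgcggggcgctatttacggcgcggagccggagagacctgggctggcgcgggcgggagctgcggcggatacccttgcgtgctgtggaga
SMAD9: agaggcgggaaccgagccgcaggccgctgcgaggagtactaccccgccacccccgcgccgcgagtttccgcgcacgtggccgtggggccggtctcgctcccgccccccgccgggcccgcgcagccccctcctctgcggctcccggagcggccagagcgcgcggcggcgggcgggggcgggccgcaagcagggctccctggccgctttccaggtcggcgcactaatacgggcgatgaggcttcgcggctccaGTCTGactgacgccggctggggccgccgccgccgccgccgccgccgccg
ID2: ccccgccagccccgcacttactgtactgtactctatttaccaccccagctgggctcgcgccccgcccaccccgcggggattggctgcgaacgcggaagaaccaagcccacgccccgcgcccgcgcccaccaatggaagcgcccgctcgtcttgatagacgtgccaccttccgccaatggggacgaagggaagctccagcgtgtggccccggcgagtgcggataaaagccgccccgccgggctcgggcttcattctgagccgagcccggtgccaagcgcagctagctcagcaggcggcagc
BAMBI held 2 copies of CAGAC, 189 and 140 bases before its start site, and 3 copies of GGCGCC. INHBA and SMAD9 held 1 CAGAC each, and ID2 held neither motif. CAGAC occurred in 45.26% of all 35116 promoter windows and in 52.5% of the 80 windows of members, and GGCGCC in 19.22% of all windows and 21.25% of the members' windows. A match describes the letters of a window and does not show a bound site.

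In KD2 against NT, more members were higher than lower. Besides INHBA and TMEM100, the higher ones included 2 TGF-beta ligands, all 3 latency and processing genes, both accessory receptors, the 3 SMADs of the BMP branch, SMAD3 and 3 of the 4 ID genes. A call means an adjusted p under 0.05 by Benjamini-Hochberg over the 19373 genes tested. By that rule 21 of 42 members were higher and 6 lower, where 17.8% of all genes tested were higher and 18.2% lower. Without INHBA and TMEM100, which were chosen for their rise, 19 of 40 were higher and 6 lower. The rest of the list was also drawn up with earlier results of these data known. Counts of members, here and in the comparisons below, are therefore descriptions. The median log2 fold change was 0.33 over the 42 members and -0.01 over all genes tested. In these bulk libraries, fewer cells of a type and less RNA per cell cannot be told apart.

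**Figure D1:**
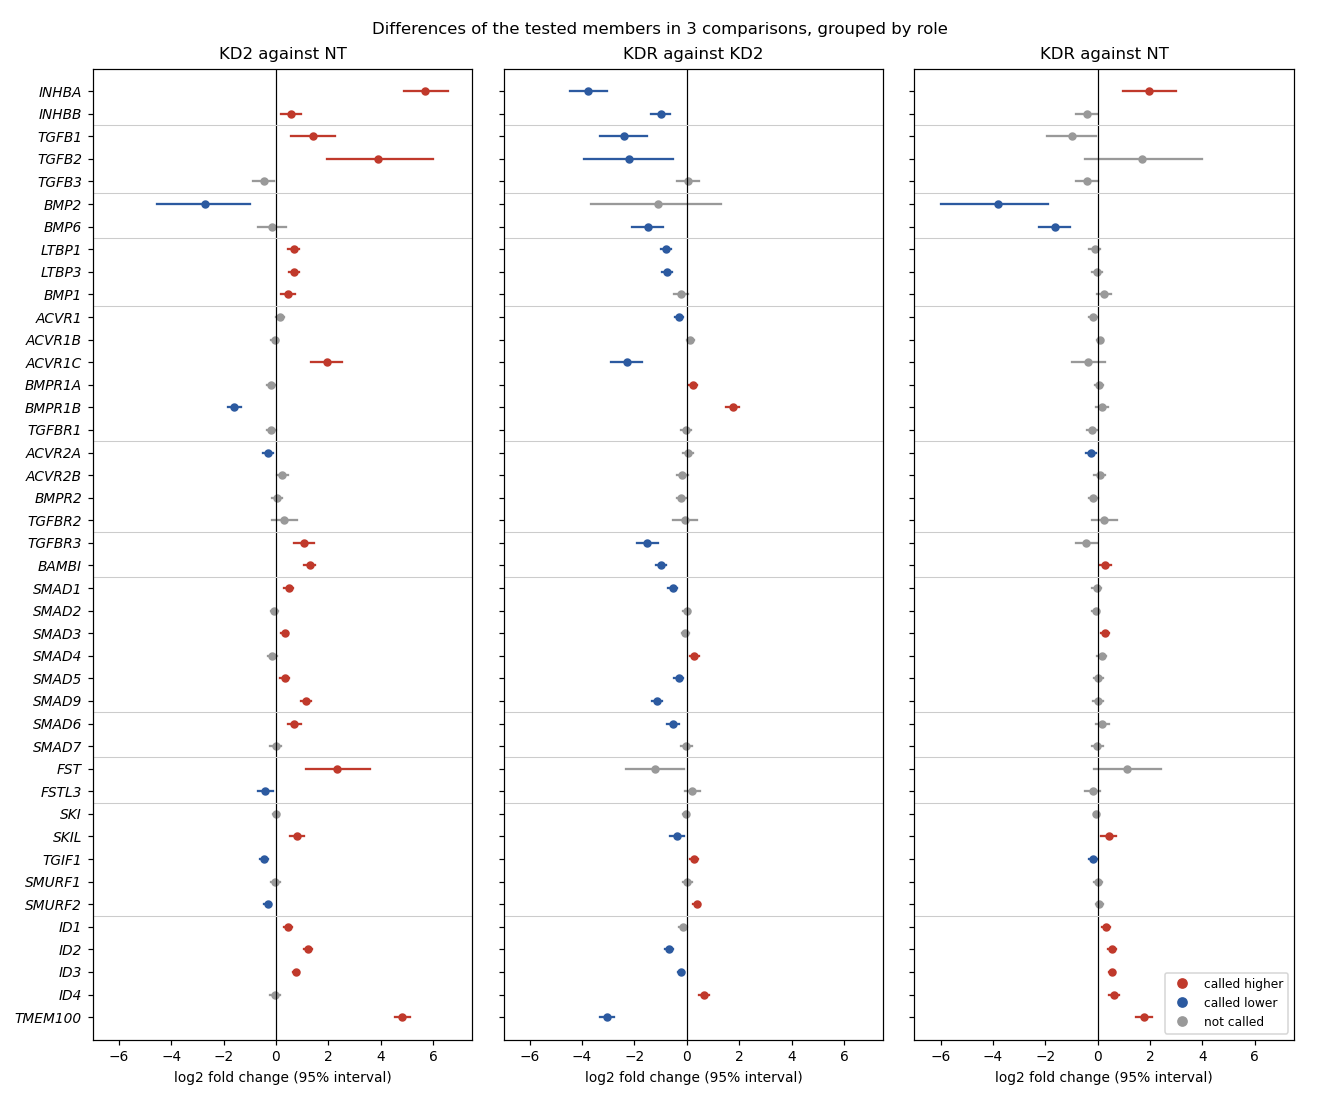
Log2 fold change of each of the 42 tested members, with its 95% interval, in KD2 against NT, KDR against KD2 and KDR against NT; horizontal lines part the roles, and colour gives the call. In KD2 against NT, 21 points are called higher and 6 lower; in KDR against KD2, 6 are called higher and 19 lower; INHBA and TMEM100 have the points farthest to the right in the KD2 against NT panel.

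In KDR against KD2 the balance of calls ran the other way, with 6 of 42 members higher and 19 lower, where 15.3% of all genes tested were higher and 17.1% lower. Without INHBA and TMEM100, 6 of 40 were higher and 17 lower. The median log2 fold change was -0.23 over the members and 0.02 over all genes. KDR against KD2 and KD2 against NT share the KD2 libraries, so values are given side by side and no overlap is read from them.

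Against NT, KDR had 9 members higher and 4 lower of 42, where 13.0% of all genes tested were higher and 14.5% lower. The median over the members was 0.01, the same as over all genes to 2 decimals. Without INHBA and TMEM100, 7 of 40 were higher and 4 lower. The 9 higher members included all 5 target genes on the list, of which TMEM100 was chosen for its level. Of target genes outside the list, 2 of 6 BMP targets were higher and 3 lower, and 2 of 8 TGF-beta and activin targets were higher and 2 lower. The number of lower members depended on NT replicate 2: it was 8 without that library.

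No member was called in KD1 against NT, where edgeR called 0 of the 19373 genes (0% called) and 1185 had an unadjusted p under 0.05. DESeq2 called none either. Among the members, FST and FSTL3 had an unadjusted p under 0.05, with log2 fold changes of 1.71 and -0.41 and the same adjusted p of 0.794. Of the 32 members with a mean of at least 5 CPM, all had a 95% interval within 2-fold either way, and 31 had one within 1.5-fold. Their log2 fold changes ran from -0.415, the value of FSTL3, to 0.235.

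KD2 against KD1 gave 20 of 42 members higher and 7 lower, where 17.9% of all genes tested were higher and 17.5% lower, and 18 of 40 higher without INHBA and TMEM100. The median log2 fold change was 0.33 over the members and -0.01 over all genes. Both KD labels are of the same target, and their libraries differed from each other in these members, as in many genes outside the list. Of 55 other tested genes of the pathway, 16 were higher and 14 lower, with a median of -0.05. Whether the pathway differed more than other genes was not tested.

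Among the activin subunits, INHBA, which encodes the beta-A subunit of activin A, was the gene that stood highest in KD2 relative to the other labels. INHBA (ENSG00000122641, GRCh38 chromosome 7, 41667168 to 41705834, minus strand) had 0.876, 1.10 and 0.804 CPM in KDR, 13.0, 11.6 and 13.1 CPM in KD2, 0.141, 0.665 and 0.156 CPM in KD1, and 0.0621, 0.495 and 0.152 CPM in NT. The raw counts were 460, 336 and 313 in KD2, against 2, 15 and 4 in NT. Every KD2 library lay above every other library, and every KDR library lay above every KD1 and NT library. INHBA's log2 fold change was 5.71 in KD2 against NT, with a 95% interval of 4.88 to 6.59, and -3.76 in KDR against KD2 (-4.47 to -3.06); both are descriptions, since INHBA was chosen for its level in KD2. In KDR against NT it was 1.95 ± 0.49 (SE, adjusted p = 0.00381), with the same NT libraries that the choice rested on. Replicate 2 carried most INHBA counts of NT, and without it these values were 6.88 in KD2 against NT and 3.11 in KDR against NT. Without KD1 replicate 2, the KD2 against KD1 value was 6.36, against 5.40 with it. An antisense gene, INHBA-AS1, overlaps 2.99% of the exon bases, and the counting used no strand option, so reads there match both genes. Whether such reads were counted for either gene was not tested.

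INHBB encodes the beta-B subunit, which forms activin B. Its gene (ENSG00000163083, chromosome 2, 120346136 to 120351803, plus strand) had 3.21, 3.00 and 3.43 CPM in KDR, 6.69, 6.04 and 6.63 CPM in KD2, 5.66, 4.32 and 3.72 CPM in KD1, and 3.88, 4.66 and 4.45 CPM in NT. The KD2 libraries were the highest of the 12 and the KDR libraries the lowest. INHBB fell by 1.01 on the log2 scale in KDR against KD2 (SE 0.18, adjusted p = 1.46e-04) and rose by 0.58 in KD2 against NT (adjusted p = 0.0137). That rise was 0.50 with an adjusted p of 0.0592 without NT replicate 1.

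Per kilobase of exon, INHBA made up 10.1% ± 2.10 of the summed INHBA and INHBB level in KDR, 43.0% ± 0.242 in KD2, 2.73% ± 2.53 in KD1 and 1.96% ± 1.76 in NT (SD, n = 3 each). INHBA was thus a minor part of the pair in KDR, KD1 and NT. In KD2 it was below INHBB per kilobase but above it in CPM, with means of 12.6 and 6.45 CPM. The lengths used, 8284 bases for INHBA and 3206 for INHBB, count every annotated exon. Which of the 2 had more transcripts in KD2 is therefore not settled by these values. INHA, the alpha subunit that turns activins into inhibins, and INHBC, the beta-C subunit, did not pass the filter. INHA had 0 counts over the KDR libraries, 4 over KD2, 22 over KD1 and 2 over NT. INHBC had 17, 17, 1 and 10 counts in the same order of labels.

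**Figure D2:**
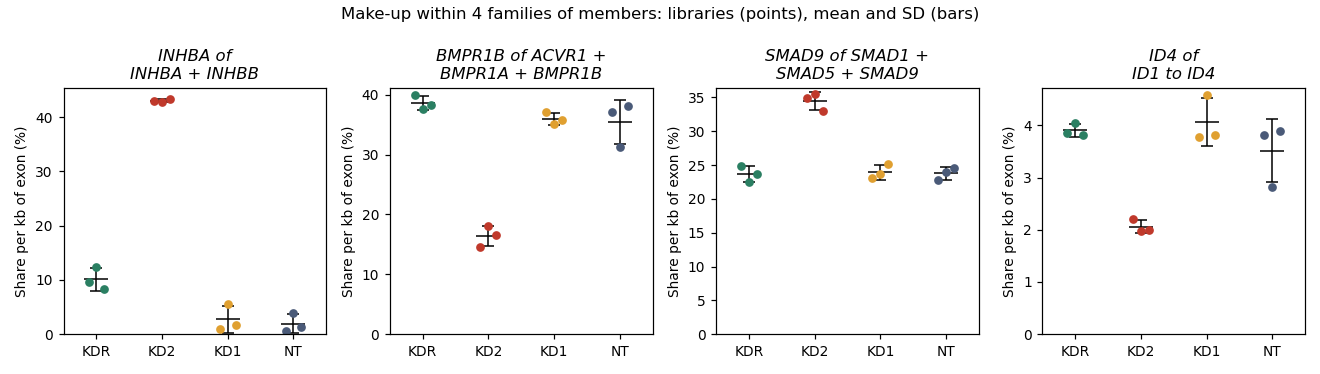
Share of 1 gene within its family, per kilobase of exon (%), in each library (points), with the mean and SD of 3 libraries (bars). KD2 stands apart from KDR, KD1 and NT in all 4 panels: above them for INHBA (43.0%) and SMAD9 (34.5%), and below them for BMPR1B (16.4%) and ID4 (2.05%).

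TGF-beta ligand genes were at low levels in every label. TGFB1 (ENSG00000105329, chromosome 19, 41301587 to 41353922, minus strand) had 0.584, 0.451 and 0.365 CPM in KDR, 1.87, 2.74 and 2.92 CPM in KD2, 1.80, 0.706 and 1.30 CPM in KD1, and 1.55, 0.495 and 0.761 CPM in NT. All KD2 libraries lay above all others, and KD1 and NT libraries overlapped. TGFB1 rose by 1.40 in KD2 against NT on the log2 scale (SE 0.40, adjusted p = 0.00828) and fell by 2.40 in KDR against KD2 (SE 0.43, adjusted p = 1.39e-04). Without NT replicate 1 the rise was 1.99, and without NT replicate 2 it was 1.09 (adjusted p = 0.0284). KD2 against KD1, at 0.96, did not pass the test (adjusted p = 0.0607).

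TGFB2 averaged 0.199 CPM in KDR, 0.902 CPM in KD2, 0.0558 CPM in KD1 and 0.0594 CPM in NT. It was called higher in KD2 against NT (3.88, SE 0.97, adjusted p = 0.00228) and lower in KDR against KD2 (-2.20, adjusted p = 0.0411), the second of which was lost without any 1 of 5 libraries. The first value was 4.64 without NT replicate 3, and the second was -3.79 without KDR replicate 3. Exons of other genes, TGFB2-OT1 and TGFB2-AS1, cover 34.2% of its exon bases, so the TGFB2 value is uncertain. TGFB3, the third isoform, averaged 3.90 CPM in KDR, 3.75 CPM in KD2, 5.15 CPM in KD1 and 5.20 CPM in NT and was called in none of the 5 comparisons. Its KD2 libraries (3.16 to 4.13 CPM) nevertheless lay below all KD1 and NT libraries (4.47 to 5.71 CPM), the other way from TGFB1 and TGFB2.

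Of the 4 BMP ligands among the members, BMP6 had the most counts, and it was lower in KDR. BMP6 (ENSG00000153162, chromosome 6, 7726099 to 7881728, plus strand) had 0.964, 1.29 and 0.585 CPM in KDR, 2.44, 2.60 and 3.04 CPM in KD2, 3.36, 2.49 and 2.31 CPM in KD1, and 3.35, 2.91 and 2.70 CPM in NT. The KDR libraries did not overlap with the others, which overlapped among themselves. BMP6 fell by 1.49 in KDR against KD2 (SE 0.28, adjusted p = 2.38e-04) and by 1.65 in KDR against NT (SE 0.28, adjusted p = 9.72e-05), and KD2 against NT was -0.15 (interval -0.69 to 0.38).

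BMP2, an inducer of bone formation, was barely detected: it averaged 0.0473 CPM in KDR, 0.0956 CPM in KD2, 0.574 CPM in KD1 and 0.678 CPM in NT. It was called lower in KD2 against NT (-2.72, adjusted p = 0.0145), in KD2 against KD1 (-2.49, adjusted p = 0.0252) and in KDR against NT (-3.82, adjusted p = 0.00387). The first of these was -3.32 without KD2 replicate 2 and lost its call without KD2 replicate 3 (adjusted p = 0.067), and the last was -3.22 without KDR replicate 1 and -5.13 without KDR replicate 3. The call in KD2 against KD1 was lost without KD1 replicate 3 (-1.87, adjusted p = 0.181) and in 3 other settings, and the value was -3.10 without KD2 replicate 2. BMP4 and BMP7 did not pass the filter, with 2 counts each over the KDR libraries, 6 and 16 over KD2, 14 and 3 over KD1, and 10 and 0 over NT.

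The 3 members that store or process ligands were higher in KD2 than in NT; of 10 other latency and activation genes tested, 3 were higher and 3 lower there. LTBP1 and LTBP3 encode proteins that hold latent TGF-beta in the matrix, and BMP1 encodes a protease that cleaves procollagens and the BMP antagonist chordin. LTBP3 averaged 51.1 CPM in KDR, 86.2 CPM in KD2, 49.5 CPM in KD1 and 52.8 CPM in NT; it rose by 0.70 in KD2 against NT (adjusted p = 2.09e-06) and fell by 0.75 in KDR against KD2 (adjusted p = 1.17e-06). LTBP1 averaged 19.3 CPM in KDR, 33.5 CPM in KD2, 21.1 CPM in KD1 and 21.0 CPM in NT, with log2 fold changes of 0.67 in KD2 against NT (adjusted p = 6.19e-06) and -0.80 in KDR against KD2 (adjusted p = 8.09e-07). In both genes the KD2 libraries stood apart from all others. BMP1 rose by 0.47 in KD2 against NT (adjusted p = 0.00628; 0.71 without NT replicate 2) and was not called in KDR against KD2 (-0.22, adjusted p = 0.199).

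Among the 6 type I receptor genes, 2 moved strongly in KD2, in opposite directions. ACVR1C, a receptor for activins and nodal, was higher in KD2, and BMPR1B, a BMP receptor, was lower. ACVR1C (ENSG00000123612, chromosome 2, 157526767 to 157628864, minus strand) had 2.19, 1.90 and 0.694 CPM in KDR, 7.97, 8.95 and 6.97 CPM in KD2, 2.23, 2.49 and 2.26 CPM in KD1, and 2.70, 1.35 and 2.17 CPM in NT. BMPR1B (ENSG00000138696, chromosome 4, 94757955 to 95158448, plus strand) had 47.5, 42.5 and 47.6 CPM in KDR, 12.6, 15.1 and 13.5 CPM in KD2, 41.3, 39.6 and 40.9 CPM in KD1, and 43.1, 32.1 and 47.9 CPM in NT. In neither gene did a KD2 library overlap with any other library.

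ACVR1C rose by 1.94 in KD2 against NT (SE 0.28, adjusted p = 9.12e-06), fell by 2.30 in KDR against KD2 (SE 0.29, adjusted p = 1.53e-06) and rose by 1.78 in KD2 against KD1 (adjusted p = 2.48e-05). BMPR1B fell by 1.58 in KD2 against NT (SE 0.12, adjusted p = 1.95e-10), rose by 1.75 in KDR against KD2 (SE 0.12, adjusted p = 4.3e-11) and fell by 1.57 in KD2 against KD1 (adjusted p = 2.31e-10). Against NT, KDR differed by -0.36 in ACVR1C (interval -0.99 to 0.27) and by 0.16 in BMPR1B (interval -0.06 to 0.39), and neither passed the test. Promoter windows of BMPR1B were listed for 3 start sites, of which 1 held 3 copies of CAGAC and the others none.

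Per kilobase of exon, BMPR1B made up 38.6% ± 1.19 of the summed level of the BMP type I receptors ACVR1, BMPR1A and BMPR1B in KDR, 16.4% ± 1.70 in KD2, 36.0% ± 0.972 in KD1 and 35.5% ± 3.69 in NT (SD, n = 3 each). ACVR1C, although higher in KD2, stayed a small part of the activin and TGF-beta type I receptors: with ACVR1B and TGFBR1 as the others, its share was 0.798% in KDR, 4.11% in KD2, 1.17% in KD1 and 1.03% in NT.

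The other 4 type I receptor genes were not called in KD2 against NT. ACVR1B, the main activin type I receptor by level per kilobase, averaged 89.7 CPM in KDR, 81.8 CPM in KD2, 84.4 CPM in KD1 and 84.5 CPM in NT. TGFBR1 averaged 47.3, 48.8, 53.8 and 55.0 CPM in the same order of labels. Small differences passed in KDR against KD2 for BMPR1A (0.23, adjusted p = 0.0177) and ACVR1 (-0.31, adjusted p = 0.00274), and the BMPR1A call was lost without KD2 replicate 2, without KD2 replicate 3 or without KDR replicate 3.

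Type II receptor genes, which encode the kinases that bind ligand first in the activin and TGF-beta branches, differed little. Of the 4, ACVR2A alone was called in KD2 against NT, at -0.30 (adjusted p = 0.0114), and it was also called in KDR against NT, at -0.25 (adjusted p = 0.046). ACVR2A lost its call in KD2 against NT without KD2 replicate 2 or KD2 replicate 3, and its call in KDR against NT under 12 of 18 alternative settings. BMPR2 differed by 0.04 in KD2 against NT (interval -0.13 to 0.22), ACVR2B by 0.24 (interval 0.04 to 0.45, adjusted p = 0.0614) and TGFBR2 by 0.33 (interval -0.15 to 0.80). ACVR2B was higher in KD2 than in KD1, by 0.42 (adjusted p = 0.00204). TGFBR2, the TGF-beta type II receptor, stood at 0.611, 0.639, 0.510 and 0.510 CPM per kilobase in KDR, KD2, KD1 and NT, the lowest level of the 4.

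**Figure D3:**
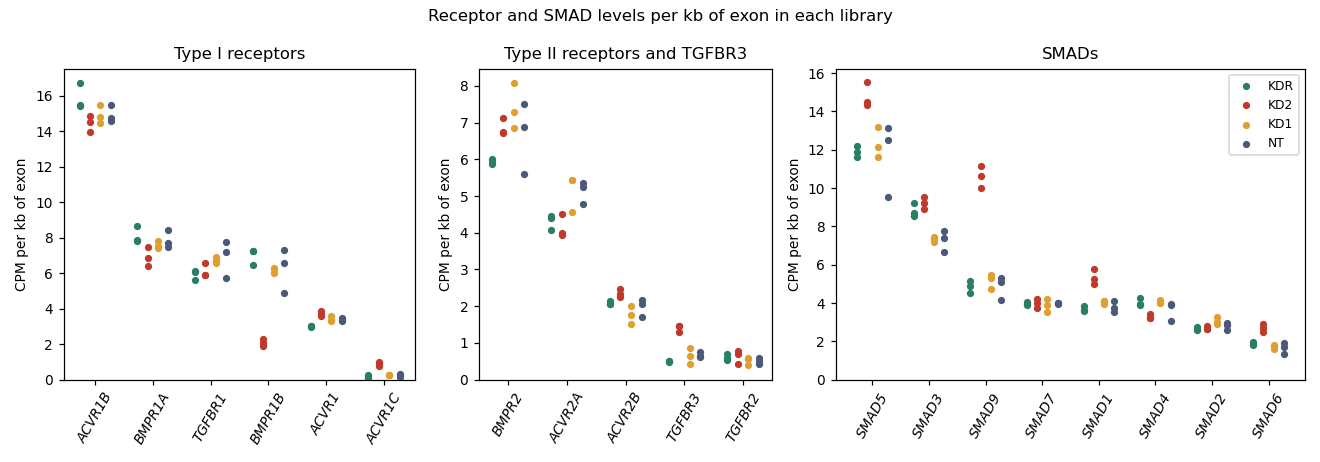
Level per kilobase of exon (CPM per kb) of type I receptors, type II receptors with TGFBR3, and SMAD genes, in each library (points), with the labels in the order KDR, KD2, KD1, NT within each gene. KD2 points are set apart for BMPR1B, which is lower, and for ACVR1C, TGFBR3 and SMAD9, which are higher. They also lie above all other points of the gene for SMAD1, SMAD5, SMAD6, ACVR2B and, only just, ACVR1. ACVR1B, SMAD7 and SMAD2 overlap or lie close together in all labels.

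Both accessory receptor genes among the members were higher in KD2. Of 3 other receptors and co-receptors tested, none was higher and 2 were lower in KD2 against NT. ENG, a co-receptor gene outside the members, averaged 0.736 CPM in KD2 and 1.51 CPM in NT. TGFBR3 encodes betaglycan, a co-receptor that presents TGF-beta and inhibin, and BAMBI encodes a pseudoreceptor without a kinase domain that dampens signalling. TGFBR3 (ENSG00000069702, chromosome 1, 91680343 to 91906335, minus strand) had 4.09, 4.35 and 4.31 CPM in KDR, 11.2, 12.5 and 12.6 CPM in KD2, 3.61, 5.53 and 7.46 CPM in KD1, and 5.40, 6.37 and 5.52 CPM in NT. Its KD2 libraries lay above all others, and KD1 replicates were the most scattered. TGFBR3 rose by 1.06 in KD2 against NT (SE 0.18, adjusted p = 7.01e-05), fell by 1.51 in KDR against KD2 (SE 0.19, adjusted p = 1.33e-06) and rose by 1.11 in KD2 against KD1 (adjusted p = 4.28e-05).

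BAMBI (ENSG00000095739, chromosome 10, 28677510 to 28682932, plus strand) had 22.8, 24.6 and 25.2 CPM in KDR, 47.8, 51.7 and 45.0 CPM in KD2, 18.4, 20.6 and 19.0 CPM in KD1, and 20.0, 17.0 and 22.2 CPM in NT. The KD2 libraries were the highest, and all KDR libraries lay above all KD1 and NT libraries. BAMBI rose by 1.29 in KD2 against NT (SE 0.10, adjusted p = 3.44e-10) and by 1.32 in KD2 against KD1 (adjusted p = 2.47e-10), and fell by 0.99 in KDR against KD2 (adjusted p = 2.63e-08). In KDR against NT it was 0.29 higher (adjusted p = 0.0288), a call that did not hold without NT replicate 2 (0.19, adjusted p = 0.12), without KDR replicate 2, without KDR replicate 3 or with only the 2 groups fitted.

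SMAD genes of the BMP branch were all higher in KD2 than in NT. SMAD9 (ENSG00000120693, chromosome 13, 36844831 to 36920887, minus strand) changed most: it had 30.6, 26.9 and 29.1 CPM in KDR, 66.4, 63.2 and 59.5 CPM in KD2, 28.1, 31.5 and 32.5 CPM in KD1, and 30.2, 24.7 and 31.6 CPM in NT. KD2 libraries were set apart, and the other 9 libraries overlapped. SMAD9 rose by 1.13 in KD2 against NT (SE 0.09, adjusted p = 1.43e-09) and by 1.04 in KD2 against KD1 (adjusted p = 5.58e-09), and fell by 1.13 in KDR against KD2 (adjusted p = 1.8e-09). KDR against NT was 0.00, with an interval of -0.19 to 0.20.

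SMAD1 rose by 0.49 (adjusted p = 7.64e-05) and SMAD5 by 0.34 (adjusted p = 0.00329) in KD2 against NT; both fell in KDR against KD2, by 0.53 (adjusted p = 3.23e-05) and 0.32 (adjusted p = 0.00616). Without NT replicate 2 the SMAD5 rise was 0.20 (adjusted p = 0.00222). Per kilobase, SMAD9 made up 23.7% ± 1.20 of the summed SMAD1, SMAD5 and SMAD9 level in KDR, 34.5% ± 1.30 in KD2, 23.9% ± 1.09 in KD1 and 23.8% ± 0.955 in NT (SD, n = 3 each). The make-up of the BMP-branch SMADs therefore differed in KD2 as well as their level.

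In the activin and TGF-beta branch, SMAD3 averaged 88.3 CPM in KDR, 92.2 CPM in KD2, 73.2 CPM in KD1 and 72.8 CPM in NT. SMAD3 rose in KD2 against NT (0.34, adjusted p = 2.64e-04) and in KDR against NT (0.28, adjusted p = 0.0027), and KDR against KD2 was -0.06 (interval -0.20 to 0.07). SMAD2 differed by -0.07 in KD2 against NT (interval -0.21 to 0.07). SMAD4, the shared partner, was not called in KD2 against NT (-0.14, adjusted p = 0.198) but was higher in KDR than in KD2 (0.29, adjusted p = 0.00954), a call lost without KDR replicate 3. In KD2 against KD1, SMAD4 fell by 0.30 (adjusted p = 0.0067) and SMAD2 by 0.19 (adjusted p = 0.0268); the SMAD2 call was lost under 4 of 18 alternatives.

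The 2 inhibitory SMAD genes did not move alike. SMAD6, which acts mainly on the BMP branch, ranged over 15.4 to 16.7 CPM in KDR, 21.4 to 24.8 CPM in KD2, 13.6 to 15.5 CPM in KD1 and 11.6 to 16.4 CPM in NT. It rose by 0.70 in KD2 against NT (SE 0.12, adjusted p = 4.11e-05) and fell by 0.53 in KDR against KD2 (adjusted p = 9.84e-04). SMAD7, which acts on both branches and is a common read-out of TGF-beta signalling, averaged 15.6 CPM in KDR, 15.7 CPM in KD2, 15.3 CPM in KD1 and 15.8 CPM in NT. Its 95% interval in KD2 against NT was -0.21 to 0.21 on the log2 scale.

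Of the secreted antagonists, FST and FSTL3, which bind activins, passed the filter. FST encodes follistatin and averaged 0.351 CPM in KDR, 0.812 CPM in KD2, 0.519 CPM in KD1 and 0.157 CPM in NT. FST rose by 2.34 in KD2 against NT (SE 0.59, adjusted p = 0.00268) but was not called in KDR against KD2 (-1.21, adjusted p = 0.0864). FSTL3 averaged 8.76 CPM in KDR, 7.56 CPM in KD2, 7.54 CPM in KD1 and 10.1 CPM in NT. It fell by 0.41 in KD2 against NT (adjusted p = 0.0255), a call lost under 5 alternatives, among them without NT replicate 2 (-0.26, adjusted p = 0.193). Neither FST nor FSTL3 was called in KD2 against KD1. The BMP antagonists NOG and GREM1 did not pass the filter: NOG had 6 counts over the KDR libraries, 22 over KD2, 5 over KD1 and 4 over NT, and GREM1 had 2 counts, both in KD2.

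Among the nuclear repressors and ubiquitin ligases, SKIL, a repressor of SMAD-driven transcription that TGF-beta itself induces, averaged 52.7 CPM in KDR, 68.4 CPM in KD2, 46.1 CPM in KD1 and 39.3 CPM in NT. SKIL rose by 0.80 in KD2 against NT (SE 0.14, adjusted p = 5.73e-05). It had 44.6, 25.7 and 47.5 CPM in the NT libraries, and without replicate 2 the value was 0.57. SKIL was also called in KDR against KD2 (-0.38, adjusted p = 0.0354) and KDR against NT (0.43, adjusted p = 0.0224), and these calls were lost under 7 and 5 of 18 alternatives. Without NT replicate 2, the KDR against NT value was 0.19. Its relative SKI differed by -0.01 in KD2 against NT, with an interval of -0.11 to 0.10.

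TGIF1, a repressor that binds SMAD2 and SMAD3, fell by 0.46 in KD2 against NT (adjusted p = 1.09e-05) and rose by 0.28 in KDR against KD2 (adjusted p = 0.00314). SMURF2, a ubiquitin ligase for SMADs and receptors, fell by 0.32 in KD2 against NT (adjusted p = 5.0e-04) and rose by 0.37 in KDR against KD2 (adjusted p = 1.19e-04). SMURF1, its close relative, was called in none of the 5 comparisons and had an interval of -0.18 to 0.14 in KD2 against NT. TGIF1 was called lower in KDR against NT (-0.18, adjusted p = 0.0479), which held under 5 of 18 alternatives.

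**Figure D4:**
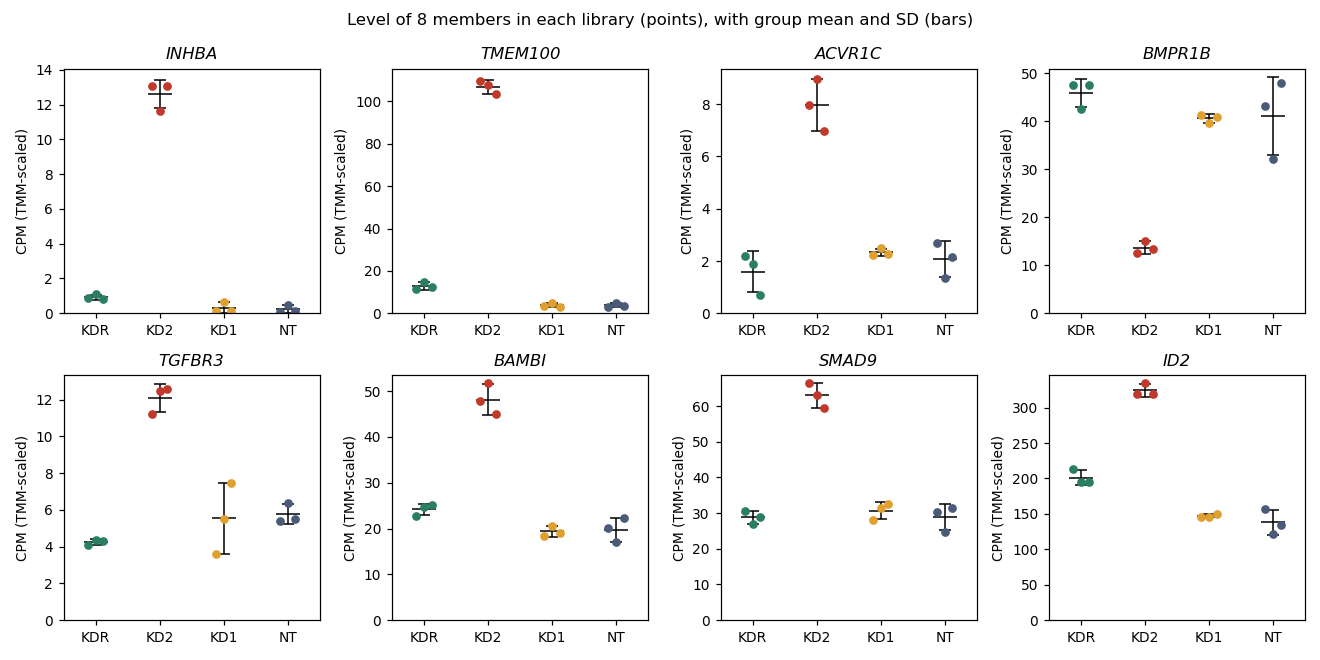
CPM (TMM-scaled, linear axis from 0) of 8 members in each library (points), with the mean and SD of 3 libraries (bars). KD2 libraries lie above all others for INHBA, TMEM100, ACVR1C, TGFBR3, BAMBI, SMAD9 and ID2 and below all others for BMPR1B; for TMEM100 the KD2 libraries sit between 103 and 110 CPM, and the others at or under 14.8 CPM.

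Target genes showed the second gene the list was drawn up around. TMEM100 encodes a small transmembrane protein known in mouse endothelium as a gene that BMP signalling induces. TMEM100 (ENSG00000166292, chromosome 17, 55719627 to 55732121, minus strand) had 11.4, 14.8 and 12.3 CPM in KDR, 110, 108 and 103 CPM in KD2, 3.46, 4.82 and 3.02 CPM in KD1, and 2.98, 4.66 and 3.65 CPM in NT. The KD2 libraries stood far above all others, and the KDR libraries lay above all KD1 and NT libraries. Its log2 fold change was 4.83 in KD2 against NT (95% interval 4.53 to 5.13) and -3.06 in KDR against KD2 (interval -3.32 to -2.79), both descriptions of a gene chosen for its level in KD2. In KDR against NT it was 1.77 ± 0.15 (SE, adjusted p = 5.26e-09), with NT libraries that the choice also used. Of 9 endothelial markers listed, 7 were under 1 CPM in every library, among them CDH5 and TEK with 0 counts. The summed level was 28.4 to 31.9 CPM in KDR, 24.7 to 28.0 CPM in KD2, 28.9 to 35.2 CPM in KD1 and 31.8 to 37.6 CPM in NT. Most of that sum came from the few markers that reached 1 CPM.

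ID1 to ID4 encode helix-loop-helix proteins that lack a DNA-binding region and are classic targets of the BMP branch. ID2 (ENSG00000115738, chromosome 2, 8678845 to 8684461, plus strand) had 214, 194 and 195 CPM in KDR, 319, 335 and 319 CPM in KD2, 146, 146 and 150.0 CPM in KD1, and 157, 122 and 135 CPM in NT. KD2 libraries were the highest, KDR libraries came next without overlap, and KD1 and NT libraries overlapped. ID2 rose by 1.23 in KD2 against NT (SE 0.07, adjusted p = 3.02e-12) and by 1.14 in KD2 against KD1 (adjusted p = 1.15e-11), fell by 0.69 in KDR against KD2 (adjusted p = 5.88e-08) and was 0.54 higher in KDR against NT (adjusted p = 3.09e-06). An antisense gene, ID2-AS1, overlaps 6.55% of its exon bases.

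ID3 averaged 266 CPM in KDR, 315 CPM in KD2, 176 CPM in KD1 and 183 CPM in NT, with log2 fold changes of 0.78 in KD2 against NT (adjusted p = 1.96e-10), -0.24 in KDR against KD2 (adjusted p = 0.00205) and 0.54 in KDR against NT (adjusted p = 1.57e-07). ID1 averaged 204 CPM in KDR, 227 CPM in KD2, 150 CPM in KD1 and 164 CPM in NT; it rose by 0.47 in KD2 against NT (adjusted p = 2.91e-05) and by 0.32 in KDR against NT (adjusted p = 0.00259), and was not called in KDR against KD2 (-0.15, adjusted p = 0.134). For both genes, all KDR libraries lay above all KD1 and NT libraries.

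ID4, unlike ID1, ID2 and ID3, was not called in KD2 against NT. Its level was 68.4, 70.8 and 66.0 CPM in KDR, 45.4, 41.7 and 44.5 CPM in KD2, 46.8, 57.6 and 46.2 CPM in KD1, and 48.6, 38.2 and 46.7 CPM in NT, so that the KDR libraries were the highest and KD2 libraries overlapped with NT. ID4 rose by 0.64 in KDR against KD2 (SE 0.09, adjusted p = 8.91e-06) and by 0.62 in KDR against NT (adjusted p = 1.86e-05), and KD2 against NT was -0.02 (interval -0.22 to 0.17).

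Summed over ID1 to ID4, the level was 740 ± 12.0 CPM in KDR, 910 ± 30.5 CPM in KD2, 524 ± 10.9 CPM in KD1 and 530 ± 22.3 CPM in NT (SD, n = 3 each). Per kilobase, ID4 made up 3.90% of that family in KDR, 2.05% in KD2, 4.06% in KD1 and 3.51% in NT, and ID2 made up 20.1%, 26.6%, 20.9% and 19.0% in the same order of labels. The KD2 and KDR libraries did not overlap with KD1 and NT in the summed level.

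Beyond the members, 90 other genes of the pathway were listed, of which 55 were tested. In KD2 against NT 18 of them (32.7%) were higher and 17 (30.9%) lower, with a median log2 fold change of -0.06. Of all genes tested, 17.8% were higher and 18.2% lower there. Whether members and other genes of the pathway differ in this was not tested. By role, 9 of 16 intracellular regulators were higher and 2 lower, and 4 of 5 further antagonists were lower and none higher. Of 10 further latency and activation genes, 3 were higher and 3 lower, of 3 further receptors and co-receptors none was higher and 2 were lower, and of 7 further ligands 2 were higher and 1 lower. Of 8 further TGF-beta and activin target genes, 1 was higher and 4 lower, and of 6 further BMP target genes, 3 were higher and 1 lower.

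**Figure D5:**
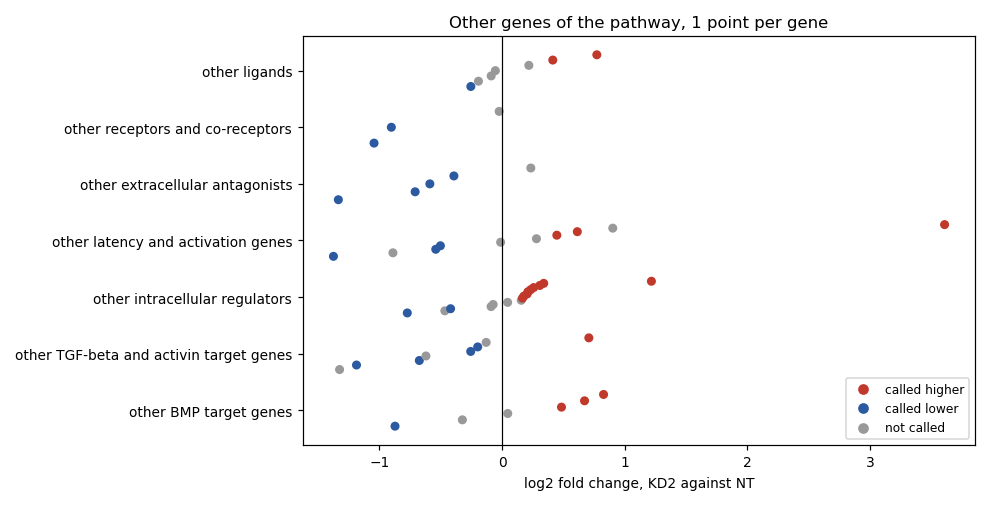
Log2 fold change in KD2 against NT (horizontal axis) of 55 other tested genes of the pathway, 1 point per gene, in rows by role, with colour for the call. TLL1, at 3.61, is the point farthest to the right; 18 genes are called higher and 17 lower.

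TLL1, which encodes a tolloid-like protease of the BMP1 family that can free BMPs from antagonists, stood out: it averaged 7.81 CPM in KDR, 43.7 CPM in KD2, 3.32 CPM in KD1 and 3.58 CPM in NT. TLL1 rose by 3.61 in KD2 against NT (SE 0.14, adjusted p = 2.13e-15), fell by 2.49 in KDR against KD2 (adjusted p = 4.28e-13) and was 1.12 higher in KDR against NT (adjusted p = 2.7e-06). Its relative TLL2, named after its values were seen, went the other way in KD2: it averaged 7.81 CPM in KDR, 3.16 CPM in KD2, 7.21 CPM in KD1 and 8.17 CPM in NT, and fell by 1.38 in KD2 against NT (adjusted p = 1.63e-07). PMEPA1, a TGF-beta target that limits SMAD activation and is also an androgen-regulated gene in prostate, averaged 1622 CPM in KDR, 1152 CPM in KD2, 1988 CPM in KD1 and 1968 CPM in NT. PMEPA1 fell by 0.77 in KD2 against NT (adjusted p = 1.95e-13), rose by 0.49 in KDR against KD2 (adjusted p = 6.02e-10) and was lower in KDR against NT by 0.28 (log2 fold change -0.28, adjusted p = 5.92e-06).

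Further genes known as TGF-beta or activin targets went both ways in KD2 against NT. BHLHE40, a transcriptional repressor, averaged 30.3 CPM in KD2 and 69.0 CPM in NT (-1.19, adjusted p = 7.63e-11), and TSC22D1 averaged 249 CPM in KD2 and 398 CPM in NT (-0.68, adjusted p = 3.35e-10). JUNB, an AP-1 subunit, averaged 725 CPM in KD2 and 444 CPM in NT (0.71, adjusted p = 2.55e-09). Of the others with the lowest adjusted p, TGIF2, a repressor related to TGIF1, rose by 1.22 (adjusted p = 9.52e-10), GATA2 rose by 0.67 (adjusted p = 6.74e-10), and the BMP antagonist NBL1 fell by 0.71 (adjusted p = 1.94e-09), with 18.6% of its exon bases shared with MICOS10 or the readthrough gene MICOS10-NBL1.

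In KDR against KD2, 14 of the 55 were higher and 21 lower, where 15.3% of all genes tested were higher and 17.1% lower. DLX5, a homeobox target of BMPs in bone, averaged 38.6 CPM in KDR and 11.5 CPM in KD2 (1.75, adjusted p = 4.92e-12), and TSC22D1 averaged 490 CPM in KDR and 249 CPM in KD2 (0.98, adjusted p = 5.98e-13). BHLHE40 rose by 1.06 (adjusted p = 6.23e-10) and NEDD4L, a ubiquitin ligase for activated SMAD2 and SMAD3, by 0.41 (adjusted p = 1.98e-07). UNC5B fell by 1.44 (adjusted p = 1.98e-08) and TGIF2 by 0.95 (adjusted p = 6.17e-08).

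In KDR against NT, 9 of the 55 were higher and 14 lower, where 13.0% of all genes tested were higher and 14.5% lower. GDF15, a distant ligand of the family that signals through its own receptor, averaged 3208 CPM in KDR and 5059 CPM in NT (-0.66, adjusted p = 7.11e-10). AMH, the anti-Müllerian hormone gene, averaged 39.0 CPM in KDR and 19.2 CPM in NT (1.02, adjusted p = 1.58e-08), and DLX5 averaged 38.6 CPM in KDR and 21.0 CPM in NT (0.88, adjusted p = 3.68e-07). GATA2 rose by 0.42 (adjusted p = 2.28e-06), and THBS1, an activator of latent TGF-beta, fell by 0.56 (adjusted p = 3.22e-06). FBN1, which encodes fibrillin-1, fell by 2.37 (adjusted p = 6.0e-05) at low levels. It averaged 0.55 CPM in KDR, from 53 counts over the KDR libraries, and 2.92 CPM in NT. None of the 55 was called in KD1 against NT, and 16 were higher and 14 lower in KD2 against KD1. In that last comparison 17.9% of all genes tested were higher and 17.5% lower.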

How the data were processed

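The authors deposited 1 table of raw counts per gene for each of 12 libraries. Per the file headers, reads were counted with featureCounts 1.6.4 over exons by gene identifier (Ensembl release 111, GRCh38), with no strand, pair or multi-mapping option, so each end of a pair counted separately. FastQC, cutadapt and HISAT2 are named in the submitters' processing notes, without versions.

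Genes kept by filterByExpr were tested in edgeR 4.0.16 (R 4.3.3) with TMM scaling and 1 quasi-likelihood fit of all 12 libraries by group, with Benjamini-Hochberg adjustment over 19373 genes. Levels are TMM-scaled CPM, given with the SD over 3 libraries; fold changes are log2, with the SE or 95% interval of the model. The method was tested on simulated data.

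Members and lists were chosen with earlier results of these data known. Every library value is given for INHBA, TMEM100 and called members with at least a 1 log2 difference and 1 CPM on average over both groups. It is also given for ID4 and, in NT, SKIL, chosen after their values were seen. Of other pathway genes, up to 8 per comparison are named by adjusted p. Alternatives were DESeq2 1.42.0, its size factors, no filter, at least 1 CPM in 3 libraries, the 2 compared groups fitted alone, the replicate block, and leaving out each library. Replicate numbers were not taken as pairs: over 18 same-numbered pairs, residual correlations ran from -0.023 to 0.039. Some luminal markers are not reported here.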

Additional observations from a re-analysis of the deposited data

How the results depend on the processing

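Of the called members, 23 of 27 in KD2 against NT, 21 of 25 in KDR against KD2, 9 of 13 in KDR against NT and 22 of 27 in KD2 against KD1 kept their call in each of 18 alternatives that tested them, and none changed direction. Members called lower in KDR against NT numbered 4, but 2 with no filter on low counts, 2 in a fit of only those groups and 2 with the replicate block; they ranged from 2 to 8 when 1 library was left out, with 8 without NT replicate 2. Left-out libraries moved members called lower from 3 to 8 in KD2 against NT (3 without KD2 replicate 3) and from 4 to 8 in KD2 against KD1 (4 without KD1 replicate 3 or KD2 replicate 3). With no filter on low counts, 23 genes were called in KD1 against NT, none of them a member. The cause was not tested. The replicate block changed no other count of members beyond 1.5 times. Members under about 1 CPM (TGFB2, BMP2, FST) rest on few counts, and the intervals cover the spread between libraries only.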
